A study of Homo sapiens with 9 samples.

Results

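S phase and mitosis genes were followed as 59 transcripts of the cell division machinery, 29 that act in DNA replication and 30 that act in mitosis. They were picked by gene symbol for their known roles, out of 59452 rows of the gene table. All 59 passed the filter on low counts and were among the 15528 genes tested. They were measured by bulk RNA sequencing in MDA-MB-453, a breast cancer cell line with a wild-type genotype per the labels, which describe it as triple-negative. Attached cells with vehicle (DMSO) grew on standard plates. Suspended cells with vehicle were forced into suspension on plates coated with poly-HEMA, a polymer that prevents attachment. Suspended cells with AT-0174 (spelled AT0174 in the labels) received 10 µM of this dual inhibitor of the tryptophan-degrading enzymes TDO2 and IDO1. Each group held 3 libraries described as biological triplicates, and all 9 were taken at 48 h. Attached cells with AT-0174 are not analysed here, so the inhibitor was compared only in suspension. All libraries came from 1 cell line.

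In a dividing cell, origins of replication are licensed in G1 by loading of the MCM helicase, and DNA synthesis begins when the helicase is activated and polymerases are recruited. E2F transcription factors drive many replication genes, and they are released from the retinoblastoma protein by cyclin-dependent kinases. Mitosis genes peak later, in G2 and M phase, where cyclin B and CDK1 start mitosis and the anaphase-promoting complex ends it. Their promoters often carry a CCAAT box and a cell cycle genes homology region (CHR). Epithelial cells often slow their division when they lose contact with a matrix, whereas transformed cells can continue, and bulk RNA of these genes is widely read as a proxy of how many cells are cycling.

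Promoter sequences of members are shown first, because the 2 sets differed in the motifs that their promoters held. The RefSeq promoter table (GRCh38.p14), with 250 bases before and 50 bases after each gene start, held 51 of the 59 members, 27 of the S phase set and 24 of the mitosis set. *MCM4*, *MCM5*, *AURKA*, *TTK*, *TPX2*, *UBE2C*, *BIRC5* and *FOXM1* had no entry. Searches were made on both strands for CHR (TTTGAA or TTCGAA), the CCAAT box (CCAAT) and an E2F core (TTCCCGC or TTCGCGC or TTGCCGC or TTGGCGC). Letters of these motifs can overlap, as the CCAAT box and the E2F core of *CHAF1A* do. The 150 bases before the start are given 5′ to 3′ for members that differed between suspended and attached cells (*CDC20*, *CCNB1* and *CHAF1A*) and for members that did not pass the test (*CDK1*, *CDC6* and *CDT1*). Motif letters are in capitals.
CDC20 promoter, chr1:43358831-43358980, plus strand: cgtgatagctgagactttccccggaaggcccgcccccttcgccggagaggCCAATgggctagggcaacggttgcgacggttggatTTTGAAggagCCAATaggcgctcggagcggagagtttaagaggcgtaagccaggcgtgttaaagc
CCNB1 promoter, chr5:69167000-69167149, plus strand: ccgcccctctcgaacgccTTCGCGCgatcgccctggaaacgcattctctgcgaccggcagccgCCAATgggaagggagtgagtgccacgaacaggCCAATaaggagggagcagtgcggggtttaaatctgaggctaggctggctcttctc
CDK1 promoter, chr10:60778181-60778330, plus strand: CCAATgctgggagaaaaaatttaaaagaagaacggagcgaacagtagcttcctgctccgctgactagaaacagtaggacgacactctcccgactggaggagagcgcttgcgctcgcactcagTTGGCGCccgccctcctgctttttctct
CHAF1A promoter, chr19:4402490-4402639, plus strand: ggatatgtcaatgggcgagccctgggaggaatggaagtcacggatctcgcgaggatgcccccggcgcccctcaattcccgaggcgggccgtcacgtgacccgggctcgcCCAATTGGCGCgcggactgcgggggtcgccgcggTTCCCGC
CDC6 promoter, chr17:40287729-40287878, plus strand: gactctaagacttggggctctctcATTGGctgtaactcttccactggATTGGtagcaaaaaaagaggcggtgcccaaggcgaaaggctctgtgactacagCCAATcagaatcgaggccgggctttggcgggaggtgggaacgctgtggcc
CDT1 promoter, chr16:88803639-88803788, plus strand: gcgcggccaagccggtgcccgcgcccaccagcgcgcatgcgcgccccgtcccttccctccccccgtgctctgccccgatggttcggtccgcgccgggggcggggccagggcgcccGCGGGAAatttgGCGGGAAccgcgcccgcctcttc
In these stretches *CDC20* held a CHR between its pair of CCAAT boxes, *CCNB1* held 2 CCAAT boxes and an E2F core, and *CDT1* held 2 E2F cores. *CDC6* held 3 CCAAT boxes.

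Over the whole windows, 15 of 24 mitosis promoters (62.5%) held a CHR, against 2 of 27 S phase promoters (7.41%) and 16.6% of all 27305 promoters. An E2F core was found in 22 of 27 S phase promoters (81.5%), 6 of 24 mitosis promoters (25.0%) and 13.1% of all promoters. The CCAAT box stood in 59.3% of S phase and 79.2% of mitosis promoters, against 35.7% of all. A CHR and a CCAAT box together were present in 14 mitosis promoters (58.3%), 2 S phase promoters (7.41%) and 6.58% of all promoters. These shares are descriptions, with no test, and a match of letters is not evidence that a factor bound there in these cells.

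**Figure D1:**
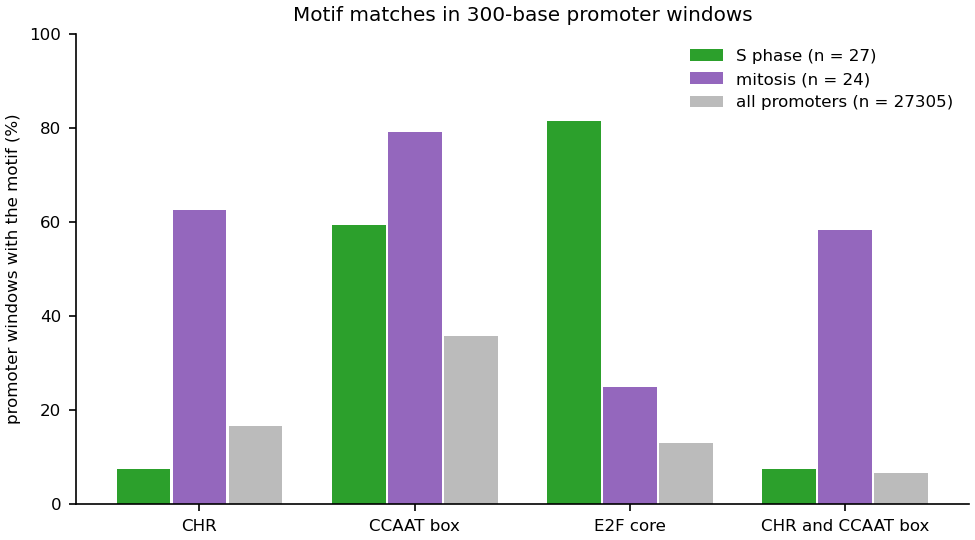
Share of promoter windows (vertical axis, percent) that held each motif, for 27 S phase promoters, 24 mitosis promoters and all 27305 promoters in the table. Matches to the E2F core were most frequent in the S phase set (81.5%), and a CHR was most frequent in the mitosis set (62.5%).

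Before the members were compared, the libraries were checked. They held 36649997 to 48019126 estimated counts, so that 3 counts, the limit that a count of 0 allows, correspond to 0.0625 to 0.0819 CPM (counts scaled to the library total). Such limits cover counting error only. Members had between 403 counts (*CDC25C*) and 31614 counts (*MKI67*) in a library. All 11 markers of luminal apocrine cells, a group that includes *FOXA1* and *ERBB2*, were above 3 counts in every library, with a summed level of 7736 to 7948 TPM (transcript abundance scaled to length and library) in attached cells and 9089 to 9240 TPM in suspended cells with vehicle. Of the receptors behind the triple-negative label, *ESR1* had at most 4 counts and *PGR* at most 18, while *ERBB2* RNA was at 402 TPM in attached cells. Of the basal and mesenchymal markers, *KRT5*, *KRT14* and *VIM* had at most 3 counts. *TP63* (206 to 266 counts) and *ZEB1* (11 to 27 counts) were above 3 counts in every library. Of the leukocyte markers, *CD3E* was at 0, while *CD68* had 52.7 to 102 counts. Of the luminal markers, 10 of 11 had a higher value in suspended than in attached cells with vehicle, and 7 of 11 passed edgeR's test as higher (adjusted p under 0.05), against 10.4% of all genes. *COL1A1*, a fibroblast marker, was present in every library (60.2, 54.6 and 53.0 TPM on average), whereas the other 5 fibroblast markers had at most 8 counts. The part of these markers in the results for the members was not tested.

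The members were abundant transcripts. Levels are compared between genes only as TPM, which corrects for transcript length. In attached cells the median level was 79.9 TPM over the S phase set and 65.0 TPM over the mitosis set, against 12.6 TPM over all tested genes. The highest S phase gene was *RRM2*, the regulated subunit of ribonucleotide reductase, at 360 ± 19.9 TPM (SD, n = 3), and the lowest was *POLA1*, the catalytic subunit of DNA polymerase alpha, at 11.7 ± 0.224 TPM. In the mitosis set *PLK1*, a kinase of mitotic entry and spindle assembly, was highest at 195 ± 9.51 TPM, and the phosphatase *CDC25C* was lowest at 9.59 ± 0.129 TPM. *CDC25C* overlapped its neighbour *CENPE*, at 9.68 ± 0.583 TPM, and *PLK1* overlapped *UBE2C*, at 186 ± 10.1 TPM. Along the order of attached means, 15 of 28 neighbouring pairs of the S phase set and 18 of 29 of the mitosis set had overlapping libraries.

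Suspended and attached cells, both with vehicle, were compared to ask how loss of attachment altered these genes. Of 29 S phase genes, 4 passed the test (edgeR's quasi-likelihood test, Benjamini–Hochberg adjusted p under 0.05), 2 higher (*RRM2* and *MCM4*) and 2 lower (*POLE* and *CHAF1A*). Of 30 mitosis genes, 5 passed, all higher (*CCNB1*, *MAD2L1*, *CENPE*, *CDC20* and *PLK1*). Over all genes the test called 21.2% (10.4% higher and 10.8% lower), so the share called was 13.8% in the S phase set and 16.7% in the mitosis set. At an unadjusted p under 0.05 there were 9 of 29 S phase and 8 of 30 mitosis genes, against 5290 of all 15528. The median difference was 0.02 on the log2 scale (range −0.20 to 0.15) over the S phase set and 0.06 (range −0.08 to 0.22) over the mitosis set, against −0.00025 over all genes. Values were higher in suspension for 17 of 29 S phase genes and for 25 of 30 mitosis genes (83.3%), against 7758 of all 15528 genes. Without library 2 of the suspended vehicle group 2 S phase and 2 mitosis genes passed, while the calls over all genes fell from 3297 to 1951. Without attached library 3, 2 and 4 passed, with 1935 over all genes. Without suspended vehicle library 3, again 2 and 4 passed. None of the 9 genes called moved by more than 0.5 on the log2 scale, whereas 546 of the 3297 genes called over the whole table did.

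**Figure D2:**
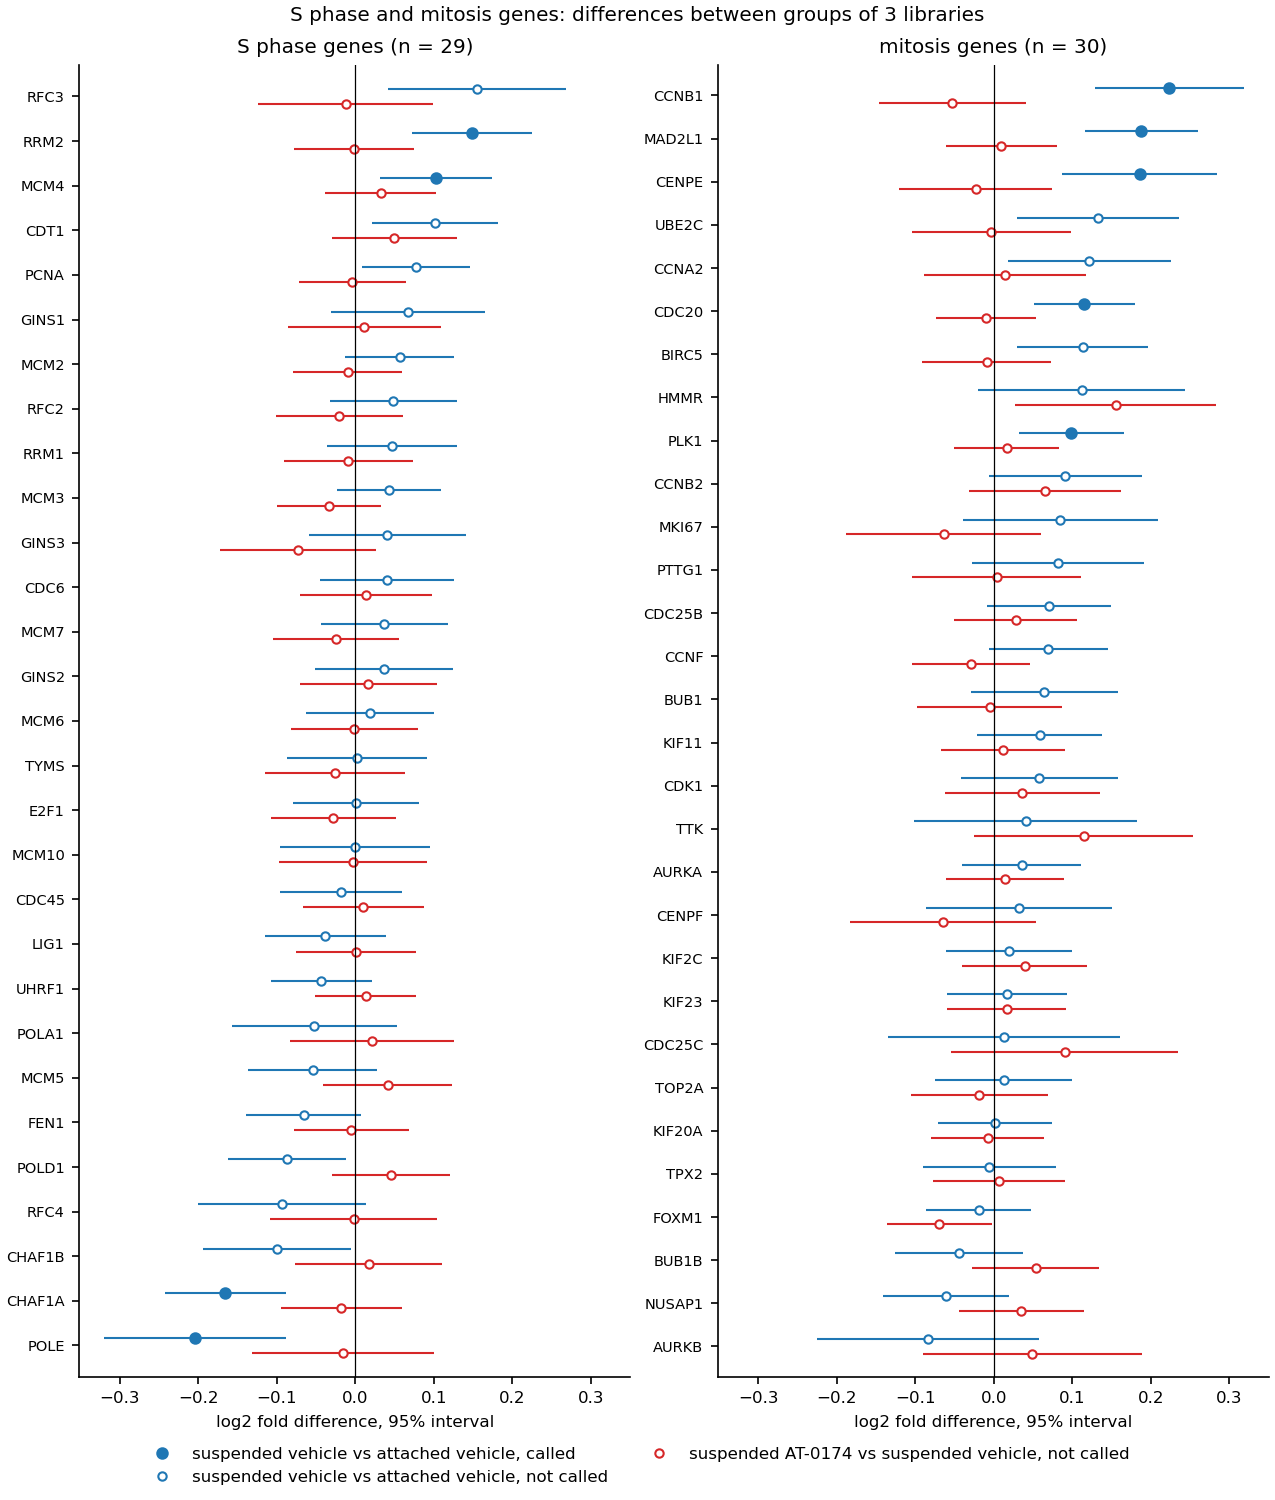
Log2 fold difference of every member with its 95% interval, S phase genes left and mitosis genes right, for suspended against attached cells with vehicle (blue) and for AT-0174 against vehicle in suspension (red). Filled points passed the test. The blue points run from −0.20 (*POLE*) to 0.22 (*CCNB1*), with 9 filled, and no red point is filled.

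Of the licensing factors, *MCM4*, a subunit of the MCM helicase, was measured at 366, 364 and 347 CPM in attached cells and at 383, 393 and 379 CPM in suspended cells. Every suspended library was above every attached one, and the difference was 0.10 on the log2 scale (SE 0.03, adjusted p = 0.042), a rise of 7.4%. *MCM2* (0.06, adjusted p = 0.24) and *MCM5* (−0.05, adjusted p = 0.35), other subunits of the same ring, did not pass. *CDC6*, which loads the helicase, was at 50.1 ± 2.03 CPM in suspended and 48.7 ± 0.591 CPM in attached cells (0.04, adjusted p = 0.51). *CDT1*, its loading partner, was at 77.3 ± 2.61 and 72.1 ± 1.75 CPM without overlap, and missed the threshold (0.10, adjusted p = 0.071).

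At the fork, *POLE* encodes the catalytic subunit of the leading-strand DNA polymerase epsilon. Its levels were 276, 270 and 314 CPM in attached cells and 244, 255 and 248 CPM in suspended cells. The groups did not overlap, although the attached libraries spread widely, and *POLE* fell by 13.2% (−0.20 on the log2 scale, SE 0.05, adjusted p = 0.018). The values of *POLD1*, of the lagging-strand polymerase delta (−0.09, adjusted p = 0.096), and of *FEN1*, the flap nuclease (−0.07, adjusted p = 0.19), were also below attached cells without passing. In contrast, *RFC3*, a subunit of the clamp loader, had a value of 0.15 (adjusted p = 0.052), and *RFC4*, another subunit, had −0.09 (adjusted p = 0.21). *PCNA*, the sliding clamp, was at 225 ± 3.77 CPM in suspended and 214 ± 7.37 CPM in attached cells (0.08, adjusted p = 0.11).

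*CHAF1A*, the large subunit of the chromatin assembly factor that deposits histones behind the fork, was at 127, 127 and 132 CPM in attached cells and at 120, 112 and 112 CPM in suspended cells. The groups did not overlap, and it fell by 0.17 on the log2 scale (SE 0.04, adjusted p = 0.0069). Its partner *CHAF1B* was at 51.9 ± 2.09 and 55.6 ± 2.19 CPM (−0.10, adjusted p = 0.13).

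*RRM2*, which limits the supply of deoxynucleotides, was at 434, 432 and 406 CPM in attached cells and at 465, 485 and 459 CPM in suspended cells. All suspended libraries were higher, by 10.8% on average (0.15 on the log2 scale, SE 0.04, adjusted p = 0.012). *TYMS*, the thymidylate synthase, did not pass, with 57.7 ± 2.68 CPM against 57.7 ± 0.861 CPM (0.00, adjusted p = 0.98). *E2F1*, the transcription factor upstream of many of these genes, was at 143, 145 and 154 CPM in attached and 143, 147 and 152 CPM in suspended cells. Its groups overlapped fully, and the interval of the difference ran from −0.08 to 0.08 on the log2 scale (adjusted p = 0.99).

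In the mitosis set, *CCNB1*, the cyclin B1 that activates CDK1 at mitotic entry, had the largest value. It was at 113, 111 and 102 CPM in attached cells and at 126, 127 and 128 CPM in suspended cells. The suspended libraries lay close together above all attached ones, and *CCNB1* rose by 16.8% (0.22 on the log2 scale, SE 0.04, adjusted p = 0.0043). *CDK1* itself was at 82.9 ± 4.46 against 79.7 ± 4.19 CPM (0.06, adjusted p = 0.41), and *CCNA2*, the cyclin A2, had a value of 0.12 without overlap between groups (adjusted p = 0.091).

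Of the genes of the spindle checkpoint and the anaphase-promoting complex within the mitosis set, 2 passed. *MAD2L1*, the checkpoint protein that holds back anaphase, was at 63.8, 64.3 and 61.9 CPM in attached cells and at 71.1, 71.8 and 73.5 CPM in suspended cells. The gap between groups exceeded the spread within either, and it rose by 13.9% (0.19 on the log2 scale, SE 0.03, adjusted p = 0.0025). *CDC20*, the activator of the anaphase-promoting complex that MAD2 restrains, was at 146, 146 and 147 CPM and at 154, 161 and 160 CPM, also without overlap (0.12, SE 0.03, adjusted p = 0.017). *UBE2C*, the ubiquitin-conjugating enzyme of the same complex, had a value of 0.13 and missed the threshold (adjusted p = 0.066).

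*CENPE*, a kinetochore motor that moves chromosomes to the spindle equator, was at 58.8, 55.7 and 58.5 CPM in attached cells and at 64.4, 69.0 and 63.4 CPM in suspended cells, a difference of 0.19 on the log2 scale (SE 0.05, adjusted p = 0.013). *PLK1* was at 219, 227 and 216 CPM and at 236, 240 and 234 CPM (0.10, SE 0.03, adjusted p = 0.039). Neither gene overlapped between the groups. *BIRC5*, the survivin of the chromosomal passenger complex, missed the threshold (0.11, adjusted p = 0.053), and *AURKB*, the kinase of that complex, had a value of −0.08 (adjusted p = 0.40).

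The genes most used as proliferation markers did not pass. *MKI67* was at 618, 611 and 687 CPM in attached and at 716, 704 and 613 CPM in suspended cells. The highest attached and the lowest suspended library crossed, and the difference of 0.08 (95% interval −0.04 to 0.21, adjusted p = 0.33) was within the spread. *TOP2A*, which untangles chromosomes, was at 169 ± 4.34 against 168 ± 9.23 CPM (0.01, adjusted p = 0.86). *FOXM1*, the transcription factor of many G2 and M phase genes, was at 278 ± 6.52 against 282 ± 3.95 CPM (−0.02, adjusted p = 0.71).

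Groups did not overlap for 4 S phase genes that were higher (*RRM2*, *MCM4*, *CDT1* and *PCNA*), 3 that were lower (*POLE*, *CHAF1A* and *RFC4*) and 9 mitosis genes, all higher. Over all tested genes this held for 38.1% (19.4% higher and 18.7% lower). Intervals of 42 of the 59 members spanned 0, and those of 55 lay within a 1.2-fold difference in either direction. The lowest bound was −0.32 (*POLE*) and the highest 0.32 (*CCNB1*) on the log2 scale, a fall of 19.9% and a rise of 24.7%. Each interval is for 1 gene, without adjustment for the number of genes.

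**Figure D3:**
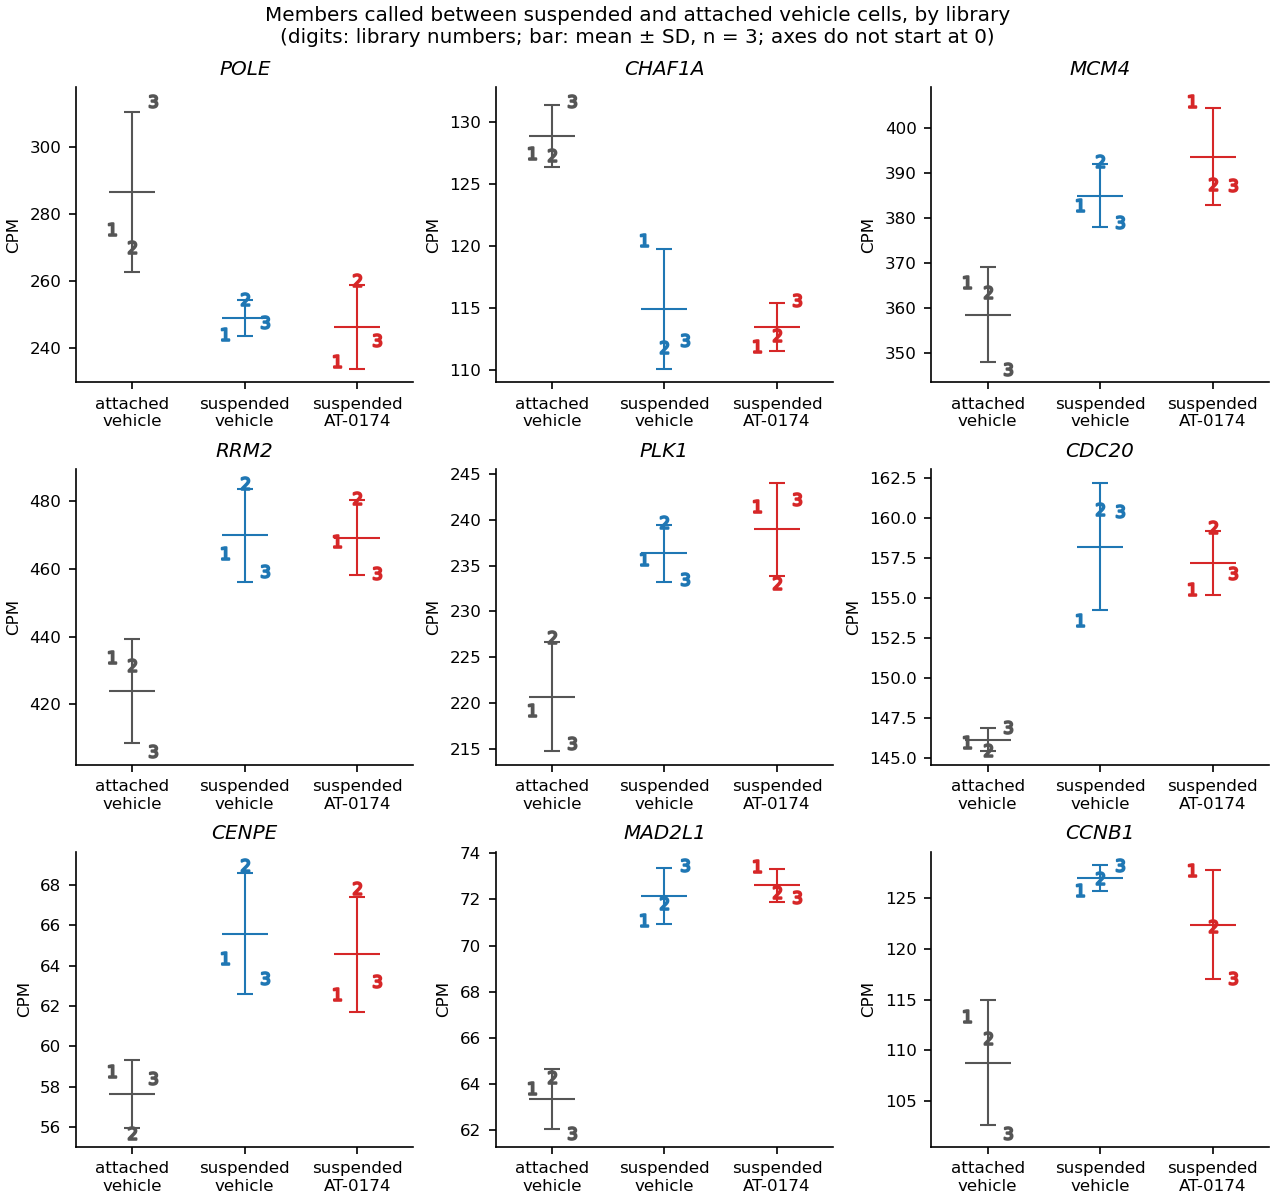
CPM of the 9 members that passed the test between suspended and attached cells with vehicle, with a digit for each library and a bar for the mean ± SD (n = 3), on axes that do not start at 0. *POLE* and *CHAF1A* lie lower and the other 7 genes higher in both suspended groups than in attached cells, and the suspended groups overlap with each other in all 9 panels.

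The calls differed in how they held when libraries or settings changed. *CCNB1* and *MAD2L1* passed under all 19 alternatives except a 1.2-fold minimum. *CHAF1A* kept its call without any 1 library. *RRM2* (adjusted p = 0.055) and *CENPE* (0.060) lost theirs without suspended vehicle library 2, and *CDC20* without library 2 (0.063) or library 3 (0.059) of that group. *POLE* lost its call without attached library 3 (0.059) and without suspended vehicle library 1 (0.058) or 3 (0.056). *MCM4* lost its call without any 1 of the 6 libraries compared (0.056 to 0.14) and without AT-0174 library 2 (0.051), which enters the shared estimate of spread. *PLK1* lost its call without every suspended vehicle library and without attached libraries 1 and 3 (0.066 to 0.13). *PLK1* also lost it without a low-count filter (0.055) and with the replicate number as a block (0.057). In a fit to the 6 libraries compared, *PLK1* (0.07) and *MCM4* (0.065) lost theirs. On counts rebuilt from TPM, 5 of the 9 calls were lost, with adjusted p of 0.065 for *RRM2*, 0.12 for *CHAF1A*, 0.20 for *CENPE*, 0.60 for *MCM4* and 0.80 for *PLK1*. At an adjusted p under 0.01, *CCNB1*, *MAD2L1* and *CHAF1A* passed, and with a 1.2-fold minimum none of the 9 did. Some named members that missed the threshold passed under part of the 19 alternatives. These were *RFC3* and *UBE2C* (5 alternatives each), *BIRC5* (4), *POLD1* (2), and *MKI67*, *CCNA2* and *CDT1* (1 each).

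AT-0174 was compared with vehicle in suspended cells to ask whether the inhibitor altered these genes. No member passed the test in either set, while 0.779% of all genes were called (0.522% higher and 0.258% lower). The median difference was −0.0020 on the log2 scale over the S phase set and 0.01 over the mitosis set, and DESeq2 and limma-voom also called 0 of 59. At an unadjusted p under 0.05 there were 0 of 29 S phase and 2 of 30 mitosis genes, against 1401 of all 15528. The 2 mitosis genes were *HMMR*, a hyaluronan receptor and spindle-associated protein, and *FOXM1*.

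*HMMR* was at 24.0, 25.6 and 24.5 CPM with vehicle and at 27.6, 29.5 and 25.4 CPM with AT-0174, and the groups overlapped by 1 library (0.16 on the log2 scale, SE 0.06, adjusted p = 0.41). *FOXM1* was at 285, 276 and 272 CPM with vehicle and at 262, 260 and 272 CPM with AT-0174 (−0.07, SE 0.03, adjusted p = 0.52). Neither difference passed. *CCNB1* was at 122 ± 5.34 CPM with AT-0174 against 127 ± 1.25 CPM with vehicle (−0.05, adjusted p = 0.79), *MKI67* at 648 ± 13.0 against 678 ± 56.3 CPM (−0.06, adjusted p = 0.82), and *E2F1* at 145 ± 1.97 against 147 ± 4.67 CPM (−0.03, adjusted p = 0.90). *RRM2* had a value of −0.0019 and *PCNA* of −0.0038. The groups did not overlap for *POLD1* and *CCNB2*, which had higher values with AT-0174, and for *GINS3* and *FOXM1*, which had lower ones, 4 of 59 members against 15.4% of all genes (7.78% higher and 7.65% lower).

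A missed threshold does not show that the drug left these genes as they were, so the intervals are given. The 95% intervals of the 59 differences reached from −0.19 (*MKI67*) to 0.28 (*HMMR*) on the log2 scale, a fall of 12.2% and a rise of 21.7%. Each interval is for 1 gene, without adjustment for the number of genes, so these ends do not bound all members jointly. For the S phase set alone they reached from −0.17 (*GINS3*) to 0.13 (*CDT1*). Of the 59 intervals, 58 lay within a 1.2-fold difference.

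Suspended cells with AT-0174 were also set against attached cells with vehicle. This contrast shares its libraries with both others and gives no independent evidence. Here 24.0% of all genes were called (12.2% higher and 11.8% lower), with 5 of 29 S phase genes (*RRM2*, *MCM4* and *CDT1* higher, *POLE* and *CHAF1A* lower) and 7 of 30 mitosis genes, all higher. Without AT-0174 library 1 the numbers were 3 and 4 (*MCM4* at an adjusted p of 0.054 and *POLE* at 0.051), and without attached library 3 they were 5 and 4. Over all genes, 2239 and 2381 were called in these fits, against 3724 with all libraries. The groups did not overlap for 9 S phase genes (7 higher) and 14 mitosis genes (13 higher), against 39.5% of all genes (20.4% higher and 19.1% lower). The medians were −0.0031 and 0.08 on the log2 scale. *HMMR* had the largest difference (0.27, SE 0.06, adjusted p = 0.0071), above its own value between vehicle groups (0.11, adjusted p = 0.22). *MAD2L1* had 0.20 (adjusted p = 0.0014) and *CDT1* had 0.15 (adjusted p = 0.011, and 0.055 on counts rebuilt from TPM). *CCNB1* had 0.17 (adjusted p = 0.014), and it lost its call without attached library 3 (0.055) or AT-0174 library 1 (0.068). Of the named members not called here, *FOXM1* (−0.09) passed under 6 of the 19 alternatives and *BIRC5* (0.10) under 1.

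The level of each set was also followed by library, as the median over members of the log2 deviation from the gene's mean over all 9 libraries. The S phase set was at −0.01, 0.02 and −0.04 in attached cells, at 0.02, 0.03 and −0.03 in suspended cells with vehicle, and at 0.02, 0.02 and −0.03 with AT-0174. The mitosis set was at −0.03, −0.03 and −0.08, at 0.02, 0.04 and −0.02, and at 0.03, 0.05 and −0.01 in the same order. Library 3 was the lowest of its group in both sets and in all 3 groups, and the range within each group exceeded the differences between group means of the S phase set. For the mitosis set no suspended library lay below an attached one. In library 3 only 4 of 30 mitosis genes of attached cells, 7 of suspended cells with vehicle and 14 with AT-0174 were above their own mean. No label states that equal numbers mark a shared day or batch.

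**Figure D4:**
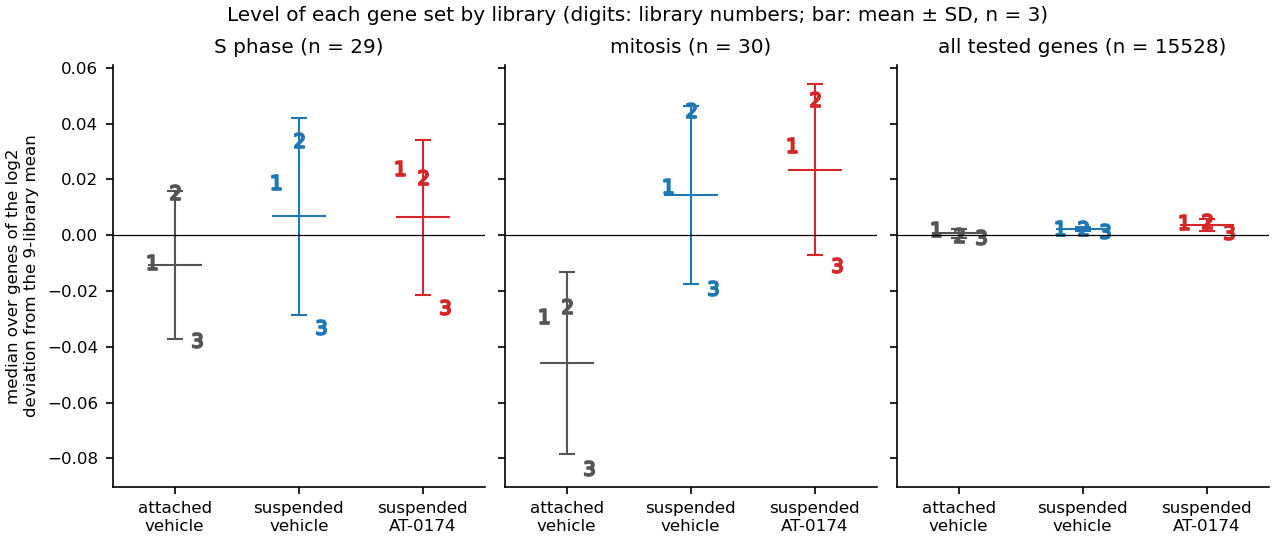
Median log2 deviation of the S phase genes, the mitosis genes and all tested genes from each gene's mean over the 9 libraries, with a digit for each library and a bar for the mean ± SD (n = 3). The digit 3 is lowest in every group of both sets. All tested genes stay within 0.00498 of 0, where the scaling of the libraries and the centring of each gene tend to hold their median.

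The deposited transcript values showed a further difference. For every gene with at least 2 transcripts, the share of its TPM assigned to the leading transcript (that with the highest mean share) was compared between groups, without a test. Between suspended and attached cells with vehicle, the share did not overlap in 9 of 28 S phase genes (32.1%), all higher in suspension, and in 8 of 29 mitosis genes (27.6%), 6 higher and 2 lower. Over all 12870 such genes this was the case for 16.6% (10.8% higher and 5.85% lower). The median difference was 2.75 percentage points over the S phase set, 0.288 over the mitosis set and 0.508 over all genes. With shares of estimated counts in place of TPM, chosen after the data were seen, the numbers were 6 of 28 and 6 of 29 against 17.2%, and the median difference of the S phase set was 0.566 percentage points.

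Examples, chosen after their values were seen, were as follows. *TYMS* had 74.0%, 86.7% and 74.2% on its leading transcript in attached cells and 89.9%, 95.1% and 92.1% in suspended cells with vehicle, while its level was 57.7 CPM on average in both groups. *GINS3*, of the GINS complex that activates the helicase, had 65.6%, 59.0% and 60.1% in attached and 76.6%, 69.8% and 72.8% in suspended cells. *CDC45*, which joins the MCM ring in the active helicase, had 58.5%, 62.5% and 54.0% against 67.3%, 69.6% and 69.5%. In all 3 genes each suspended library lay above each attached one. *MKI67* went the other way, with 69.4%, 70.0% and 68.5% against 67.5%, 60.6% and 60.7%. Between AT-0174 and vehicle the share did not overlap in 1 of 28 S phase and 2 of 29 mitosis genes, against 8.77% of all genes (4.47% higher and 4.3% lower). Salmon divides reads among overlapping transcripts by a model, and annotated transcripts of a gene can share exons, so these shares are estimates.

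**Figure D5:**
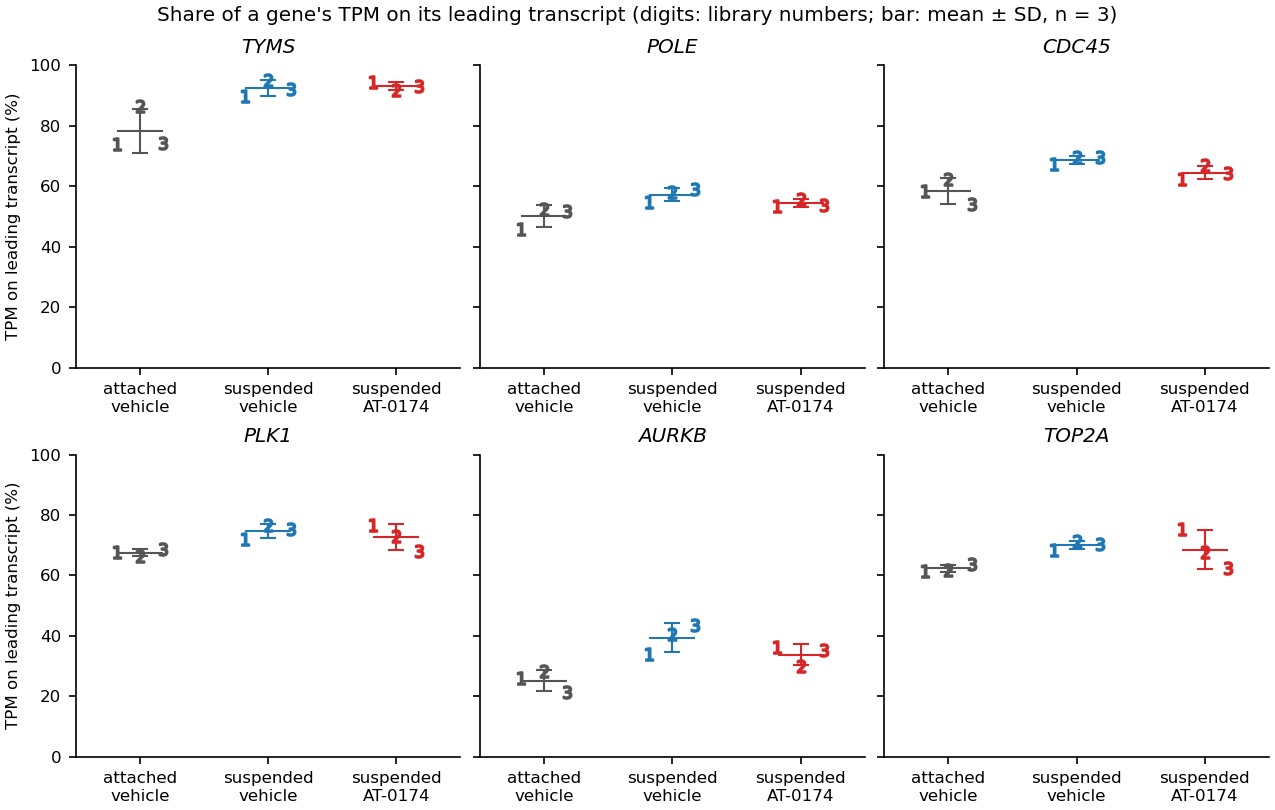
Share of a gene's TPM on its leading transcript (percent, from 0 to 100) in each library for 6 members whose shares did not overlap between suspended and attached cells with vehicle, with a digit for each library and a bar for the mean ± SD (n = 3). Both vehicle groups are apart in every panel, with *TYMS* at 78.3% and 92.4% and *AURKB* at 25.2% and 39.4% on average. With shares of estimated counts in place of TPM, the vehicle groups of *POLE* overlapped.

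Genes around the members in the same pathways were read from 8 further lists. In suspended against attached cells with vehicle, 3 of 20 other licensing and firing genes passed (1 higher, 2 lower), as did 4 of 24 other DNA synthesis and nucleotide genes (3 higher, 1 lower), 2 of 18 genes of the E2F, RB and DREAM group (both lower), 3 of 27 other kinetochore genes (2 higher, 1 lower), 3 of 19 other spindle genes (2 higher, 1 lower), 3 of 22 other genes of mitotic entry and the anaphase-promoting complex (2 higher, 1 lower) and 1 of 13 condensin and cohesin genes (lower). Each of these shares was below the 21.2% over all genes. The list of G1 cyclins, their kinases and inhibitors differed, with 6 of 14 (42.9%) called, 5 higher and 1 lower. With AT-0174, 0 genes passed in all 8 lists.

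In the G1 list, *CDKN1A*, the p21 inhibitor of cyclin-dependent kinases, rose from 59.5 to 76.6 CPM (0.36 on the log2 scale, SE 0.04, adjusted p = 9.4e-05). *CDKN1B*, the p27 inhibitor, which was named after its value was seen, rose by 0.15 (adjusted p = 0.0062), and it lost its call on counts rebuilt from TPM (0.41). *CCND1*, cyclin D1, rose from 729 to 819 CPM (0.17, adjusted p = 0.0030), and *CDKN2C*, the p18 inhibitor of CDK4 and CDK6, fell by 0.30 on the log2 scale (adjusted p = 0.0029). Inhibitors of the G1 kinases were thus called in both directions.

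In the lists next to replication, *POLE4*, a small subunit of polymerase epsilon, rose by 0.31 on the log2 scale (adjusted p = 0.0023), opposite in sign to *POLE*, and it lost its call on counts rebuilt from TPM (0.062). *CHTF18*, of an alternative clamp loader, fell by 0.44 (adjusted p = 0.0040), and *DCTPP1*, a nucleotide pyrophosphatase, rose by 0.23 (adjusted p = 0.0029). *TIMELESS*, of the fork protection complex, fell by 0.13 (adjusted p = 0.0076) and *E2F4*, an E2F of repressor complexes, fell by 0.19 (adjusted p = 0.0093). Of the genes next to mitosis, *ZWINT*, a kinetochore protein, fell by 0.28 (adjusted p = 0.00074), and the kinesin *KIF18B* fell by 0.42 (adjusted p = 0.00087). *GTSE1*, which regulates p53 and microtubules, fell by 0.20 (adjusted p = 0.0025), whereas *ECT2*, which directs cytokinesis, rose by 0.12 (adjusted p = 0.015), a call lost without attached library 3 (0.054) and on counts rebuilt from TPM (0.12). Also called higher were *ANAPC11* (0.28, adjusted p = 0.011), *UBE2S* (0.18, adjusted p = 0.020), *NEK2* (0.13, adjusted p = 0.042), *CKAP5* (0.13, adjusted p = 0.011) and *BUB3* (0.12, adjusted p = 0.020). Of the 19 alternatives, 13 removed the call of *NEK2*, 7 that of *UBE2S* and 6 that of *BUB3*. The calls of *ANAPC11* and *CKAP5* were each lost under 2.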

How the data were processed

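Bulk RNA sequencing of MDA-MB-453 cells gave 9 libraries in 3 groups of 3, assigned from their titles. According to the study's methods, reads were trimmed with Cutadapt 3.4 in Trim Galore 0.6.7, aligned with STAR 2.7.9a to GRCh38 and quantified with Salmon 1.10.1, and estimated counts were summed by gene. The deposited estimated counts carry no normalization, and the deposited TPM values of transcripts were made by the authors with Salmon. Whether strand was used in quantification is not given in the sources used here, so reads of overlapping antisense transcripts cannot be told apart. The labels and the study's methods name different library kits.

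Estimated counts were rounded. The low-count filter was filterByExpr from edgeR 4.0.16 in R 4.3.3, and 15528 genes remained. After TMM scaling, 1 quasi-likelihood fit was made over the 9 libraries, with group as its single term. A gene was called when its Benjamini–Hochberg adjusted p over all tested genes was under 0.05. Fold changes are on the log2 scale, CPM uses TMM-scaled totals, and intervals are 95%. Gene TPM is the sum over transcripts.

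The members and lists were chosen with earlier results of these data known, so no test over a list was made. Within each set the 12 members with the smallest p in each of the first 2 contrasts were taken for naming. With them were 17 fixed members, the 3 genes of each other list with the smallest p, and the members with the highest and lowest TPM. The text gives values for only part of the genes so taken, by no stated rule. Other genes were named after their values were seen.

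Call counts and the values of genes given with an adjusted p were recomputed with 1 choice changed (set medians under all but the last 2): scaling by DESeq2 size factors, a DESeq2 1.42.0 or limma-voom (limma 3.58.1) test, no low-count filter or at least 10 counts in all libraries, a fit to the 6 libraries being compared, the replicate number as a block, counts rebuilt from gene TPM, each library omitted singly, an adjusted p under 0.01, and a 1.2-fold minimum. Replicate pairs differed by more than sampling noise, so no library was merged. Promoters came from RefSeq (GRCh38.p14), and gene positions were compared with GENCODE release 44.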

Additional observations from a re-analysis of the deposited data

How the results depend on the processing

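The medians of both sets moved by less than the spread between libraries under every alternative run. In suspended against attached cells with vehicle they ranged from 0.01 to 0.04 (S phase) and from 0.03 to 0.09 (mitosis) on the log2 scale. The members had at least 403 counts in a library, no alternative changed the depth, and their intervals reached a rise of 24.7% in suspended against attached cells with vehicle. Where a value changed, the cause was not tested, except that a stricter threshold cannot call more genes by construction. This does not hold for leaving out a library, which lowered some counts of calls and raised others. For AT-0174 against vehicle such fits called 63 to 128 of all genes, against 121 with all libraries.

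For suspended against attached cells with vehicle, 3297 genes were called over the whole table, 1396 on counts rebuilt from TPM, 1405 at an adjusted p under 0.01, 1340 with a 1.2-fold minimum and between 1935 and 3260 with 1 library left out. Under the same settings the S phase set had 2, 1, 0 and 2 to 5 genes called, and the mitosis set 3, 2, 0 and 2 to 6. For AT-0174 against vehicle, 121 genes were called, with 239 by DESeq2, 499 without a filter, 31 on counts rebuilt from TPM, 52 at an adjusted p under 0.01, 78 with a 1.2-fold minimum and 63 to 128 with 1 library left out. No member was called under any of them. For AT-0174 against attached cells with vehicle, 3724 genes were called, with 1802, 1839, 1567 and 2239 to 3680 on counts rebuilt from TPM, at an adjusted p under 0.01, with the 1.2-fold minimum and with 1 library left out. The S phase set had 3, 1, 0 and 3 to 6 genes called there, and the mitosis set 3, 2, 1 and 4 to 8, or 11 without a filter.

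Values that changed sign belonged to genes that were not called, in 44 of the values recomputed. For suspended against attached cells with vehicle, *E2F1* was at −0.00066 with DESeq2 size factors, −0.00063 by DESeq2, −0.0065 in the 6 libraries and from −0.0215 to 0.0363 with 1 left out. On counts rebuilt from TPM, *FOXM1* was at 0.0025, *MCM5* at 0.0071, *TOP2A* at −0.1255 and *TYMS* at −0.0921, and *TYMS* was at −0.0057 in the 6 libraries. With 1 library left out, *TOP2A* ranged from −0.0298 to 0.0491 and *TYMS* from −0.0222 to 0.0414. For AT-0174 against vehicle, counts rebuilt from TPM gave −0.0241 for *ANAPC4*, 0.0191 for *CCNE2*, 0.020 for *RRM2* and 0.0146 for *TOP2A*. Without a filter *PCNA* was at 0.0014 and *RRM2* at 0.0033, and *RRM2* was at 4.3e-05 in the 6 libraries. With 1 library left out, the values ranged for *BIRC5* from −0.0336 to 0.0231, *CDC6* from −0.0134 to 0.0427, *CHAF1A* from −0.0417 to 0.0125, *MCM2* from −0.0379 to 0.0053, *PCNA* from −0.0173 to 0.0069, *RRM2* from −0.0211 to 0.0176 and *UHRF1* from −0.0062 to 0.0247. For AT-0174 against attached cells with vehicle, *MCM2* was at −0.0068 and *MCM5* at 0.0393 on counts rebuilt from TPM, and *TOP2A* at 0.0044 without a filter. With 1 library left out, the values ranged for *AURKB* from −0.0831 to 0.0303, *E2F1* from −0.0495 to 0.0081, *MCM5* from −0.0402 to 0.0204, *MKI67* from −0.0095 to 0.0767 and *TOP2A* from −0.0485 to 0.0305.

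Whether the replicate numbers pair the libraries is not stated. The deviations of same-numbered libraries correlated between −0.065 and 0.053 over all genes. That does not decide it for the members, since library 3 was lowest in each group of both sets. With the replicate block, 3250, 146 and 3677 genes were called in the 3 contrasts, with 4, 0 and 5 of the S phase set and 6, 0 and 9 of the mitosis set.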
